A study of Mus musculus with 20 samples.

Results

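The genes described here are the 37 genes of the mouse mitochondrial genome, taken as every gene whose GENCODE symbol on GRCm38 starts with mt-. They comprise 13 protein genes, 2 ribosomal RNA (rRNA) genes and 22 transfer RNA (tRNA) genes. All 37 were among the 27052 genes of the knockdown counts and 36 among the 26286 genes of the overexpression counts, which did not list the tRNA gene mt-Td. The livers came from male C57BL/6J mice that received an AAV8 vector at 8 weeks of age and the diet labelled HF/HS until 25 weeks, with 5 livers in each of 4 groups and no group without a vector. In the knockdown experiment the insert was a hairpin that targets Pklr (shPKLR) or, in controls, firefly luciferase (shLUC), and in the overexpression experiment it was Pklr cDNA (PKLR) or, in controls, GFP. The vectors used the thyroxine binding globulin promoter, which is active in hepatocytes, so other liver cells were not meant to express the insert. Pklr encodes the pyruvate kinase of liver and red cells, which makes pyruvate at the end of glycolysis, and the series concerns its part in fatty liver disease.

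Mitochondrial DNA is a small circle that each cell holds in many copies inside its mitochondria. Its protein genes encode core subunits of respiratory complexes I, III and IV and of the ATP synthase (complex V), which also need many subunits made from nuclear genes. Both strands are copied by the polymerase Polrmt into long transcripts, and the tRNAs that lie between the other genes are cut out to release the rRNAs and messenger RNAs, whose stability depends on factors such as Lrpprc. Hepatocytes are rich in mitochondria, which take the pyruvate made by glycolysis and burn fatty acids.

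On GRCm38 the genes lie end to end on chromosome M. Of the protein genes, mt-Atp6 and mt-Co3 share 1 base on the same strand. In 2 other pairs on the same strand the shared stretch is longer, and a read from it belongs to both genes. The junctions are printed because ratios of these neighbours are given further on; the capitals mark the shared bases, which are 7 between mt-Nd4l and mt-Nd4 (chrM:10137-10203, forward strand) and 43 between mt-Atp8 and mt-Atp6 (chrM:7897-7999, forward strand). Both were read from the GENCODE transcripts.
mt-Nd4l to mt-Nd4 junction: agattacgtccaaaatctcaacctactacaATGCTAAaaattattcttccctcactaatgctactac
mt-Atp8 to mt-Atp6 junction: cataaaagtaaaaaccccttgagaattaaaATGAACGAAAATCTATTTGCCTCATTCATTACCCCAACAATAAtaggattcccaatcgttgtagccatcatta
In each capital run the downstream gene starts with ATG and the upstream gene ends with TAA. Of the 13 protein genes, 12 lie on the forward strand and mt-Nd6, a complex I subunit, lies on the reverse strand, where 14 of its bases face mt-Nd5.

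Among the tRNAs, 14 lie on the forward strand and 8 on the reverse strand. The neighbours mt-Tt (tRNA for threonine, chrM:15289-15355, forward strand) and mt-Tp (tRNA for proline, chrM:15356-15422, reverse strand) are shown with mt-Ts1 (tRNA for serine, chrM:6870-6938, reverse strand) because mt-Tp and mt-Ts1 held most of the tRNA counts and mt-Tt nearly none. The capitals mark the anticodon, found as the middle of a 7-base loop closed by a stem, and each sequence is the RNA strand written as DNA.
mt-Tp: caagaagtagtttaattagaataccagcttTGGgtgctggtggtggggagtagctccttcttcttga
mt-Ts1: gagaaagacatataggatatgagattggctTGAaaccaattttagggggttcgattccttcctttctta
mt-Tt: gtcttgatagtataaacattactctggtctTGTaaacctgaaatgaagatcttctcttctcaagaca

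Part of the mitochondrial genome is repeated in the nucleus. On chromosome 1, between 24611535 and 24616197, 7 unprocessed pseudogenes match mitochondrial genes over 99.71% to 100% of their aligned bases. The counts were repeated there: the ratio of Gm10222 to mt-Nd4l counts was 1.006 to 1.016, and that of Gm28661 to mt-Co2 was 1.003 to 1.018. Likewise Gm28437 and Gm28438 exceeded mt-Co3 and mt-Nd3 by a factor of 1.003 to 1.043. Gm10925, which matches mt-Atp6 at 678 of 678 bases, exceeded it by a factor of 1.194 to 1.468. Gm29216 matches part of mt-Co1 (482 of 483 aligned bases) and held 0.312 to 0.666 times its counts, and Gm28439 matches part of mt-Nd4 (876 of 876 bases) and held 0.21 to 0.516 times its counts. Reads were thus counted at more than 1 place, the levels of these mitochondrial genes are uncertain to that extent, and the copies are not added to them here.

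Library totals ran from 29933820 to 45413803 counts in 19 livers and reached 167891680 in shPKLR replicate 4. Levels are counts per 1000000 counts of a library (CPM) with TMM scaling over all 20 livers, which puts both experiments on 1 scale, while log2 fold changes come from the fit of each experiment unless the joint fit is named. The level of Pklr on this scale was 478.9 ± 115.7 CPM (SD, n = 5) in shLUC, 54.9 ± 23.3 in shPKLR, 118 ± 34.5 in GFP and 742 ± 210 in PKLR livers. The 7 hepatocyte markers summed to 71660 to 122500 CPM in every liver, with Alb, serum albumin, on top. In bulk liver, fewer cells of a type and less RNA per cell cannot be told apart.

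Mitochondrial genes took a large part of the liver RNA that was counted, between 7.79% and 10.98% of all counts. The share was 10.2% ± 0.61 (SD, n = 5) with shLUC and 9.18% ± 1.08 with shPKLR, groups that overlapped because shPKLR replicate 1, at 10.98%, was the highest of all livers. It was 8.57% ± 0.52 with GFP and 9.45% ± 0.19 with PKLR, and each PKLR liver, at 9.25% or more, lay above every GFP liver, at 9.23% or less. No test is given for a sum over the members. Protein genes held 96.44% to 98.47% of the mitochondrial counts, the rRNAs 1.39% to 3.39% and the tRNAs 0.10% to 0.16%. Whether the total RNA kit removed mitochondrial rRNA or kept RNA as short as a tRNA is not given in the sources used here, so these shares describe the libraries.

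Per kilobase of gene, the subunits of cytochrome oxidase (complex IV), which passes electrons to oxygen, were at the top together with mt-Atp6, the subunit of the proton channel of ATP synthase. Over 20 livers mt-Co1 averaged 17240 CPM per kilobase, mt-Atp6 12820, mt-Co2 12380 and mt-Co3 11890. Next came mt-Cytb, the only complex III subunit encoded here, at 9452 CPM per kilobase. The 7 complex I subunits spread over a wider range: mt-Nd1 averaged 6339, mt-Nd4 5974 and mt-Nd2 5508 CPM per kilobase, while mt-Nd3 averaged 3255, mt-Nd4l 3082, mt-Nd6 2998 and mt-Nd5 2137. The second ATP synthase subunit, mt-Atp8, averaged 3212 CPM per kilobase. Lowest were mt-Rnr1, the rRNA of the small ribosomal subunit, at 930 CPM per kilobase and mt-Rnr2, that of the large subunit, at 611. Whether the kit removed mitochondrial rRNA is not given in the sources used here, so the place of the rRNAs describes the libraries. The ranges of several neighbours in this order overlapped. Those of mt-Atp6, mt-Co2 and mt-Co3 did so in all 4 groups, as did those of mt-Nd1, mt-Nd4 and mt-Nd2. The same held for mt-Nd3, mt-Atp8, mt-Nd4l and mt-Nd6. Within livers the order of these neighbours was not constant either, with the upper gene higher in 11 to 16 of 20. The step from mt-Nd2 to mt-Nd3 was complete, with mt-Nd2 higher in 20 of 20 livers and no overlap in any group. In 20 of 20 livers mt-Co3 was also above mt-Cytb, mt-Cytb above mt-Nd1, mt-Nd6 above mt-Nd5 and mt-Rnr1 above mt-Rnr2. The ranges of these pairs overlapped in 1 or 3 of the groups. Since mt-Co1, mt-Atp6, mt-Co2, mt-Co3, mt-Nd4, mt-Nd3 and mt-Nd4l all have copies on chromosome 1, their place in the order depends on how shared reads were counted. Of the 204 bases of mt-Atp8, 43 are shared with mt-Atp6, and of the 297 of mt-Nd4l, 7 with mt-Nd4. How reads on these bases were counted is not given in the sources used here, so these levels depend on it too.

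**Figure D1:**
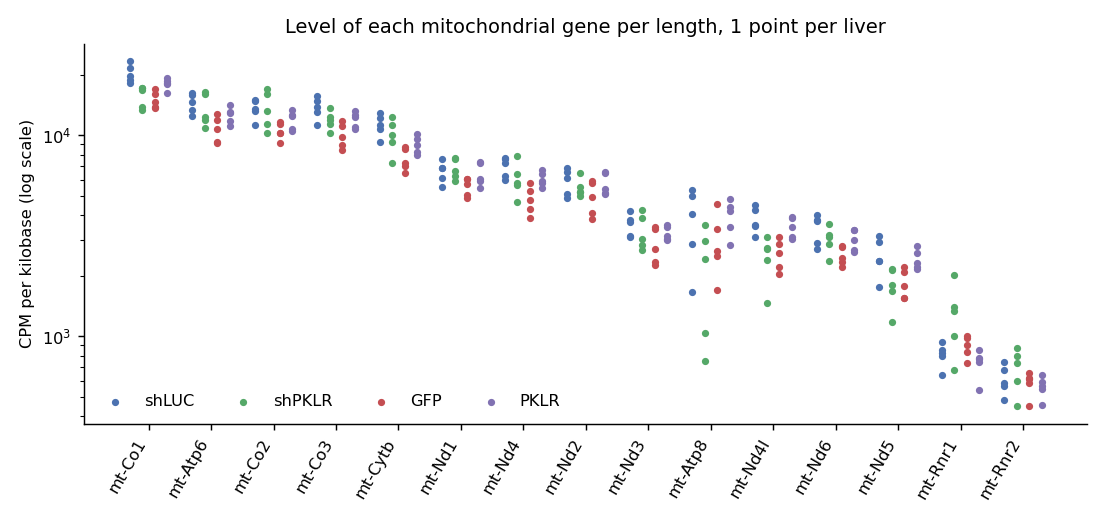
CPM per kilobase of gene length (log scale) of the 13 protein and 2 rRNA genes in each of 20 livers, coloured by group and ordered by the mean over all livers. The genes keep much the same order in each group, and mt-Atp8 has the widest scatter.

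Some members varied far more between livers than others. mt-Nd1 spanned a 1.58-fold range over the 20 livers and mt-Co1 a 1.75-fold range, while mt-Nd4l spanned 3.10-fold, mt-Rnr1 3.74-fold and mt-Atp8 7.07-fold. mt-Atp8 was at 588, 1083, 336.5, 826 and 1018 CPM in shLUC replicates 1 to 5 and at 730.2, 211, 494, 153 and 609.8 CPM in the shPKLR livers. In GFP livers it was at 512, 346, 697, 543 and 924.9 CPM, and in PKLR livers at 853, 580.0, 987, 898 and 714 CPM. The groups overlapped in both experiments, and the lowest liver was shPKLR replicate 4, the one of much greater depth. That liver was also the lowest of all for mt-Nd4l, at 432 CPM, and for mt-Nd5, at 2147 CPM, and the highest for mt-Rnr1, at 1916 CPM. Values of these genes without it are given beside their knockdown results.

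The tRNA counts followed the strand. Before scaling for depth, the 8 reverse-strand tRNA genes together held 3035 to 23009 counts per library and the 14 forward-strand genes 66 to 708. Both upper ends were in the much deeper shPKLR replicate 4. The highest of the other livers were 6258 reverse-strand counts in shLUC replicate 5 and 114 forward-strand counts in GFP replicate 1. The proline tRNA gene mt-Tp alone held 51.7% to 83.8% of the tRNA counts, at 96.3 CPM on average, followed by the serine tRNA gene mt-Ts1 at 22.2 CPM. The next were all on the reverse strand too: mt-Tc (cysteine) averaged 3.39 CPM, mt-Te (glutamate) 3.25, mt-Tn (asparagine) 2.84 and mt-Tq (glutamine) 1.51. mt-Tt, which ends on the base before mt-Tp, did not exceed 0.12 CPM in any liver. A strand setting for the counting is not given in the sources used here, so reads from a tRNA gene and from RNA of the opposite strand cannot be told apart.

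**Figure D2:**
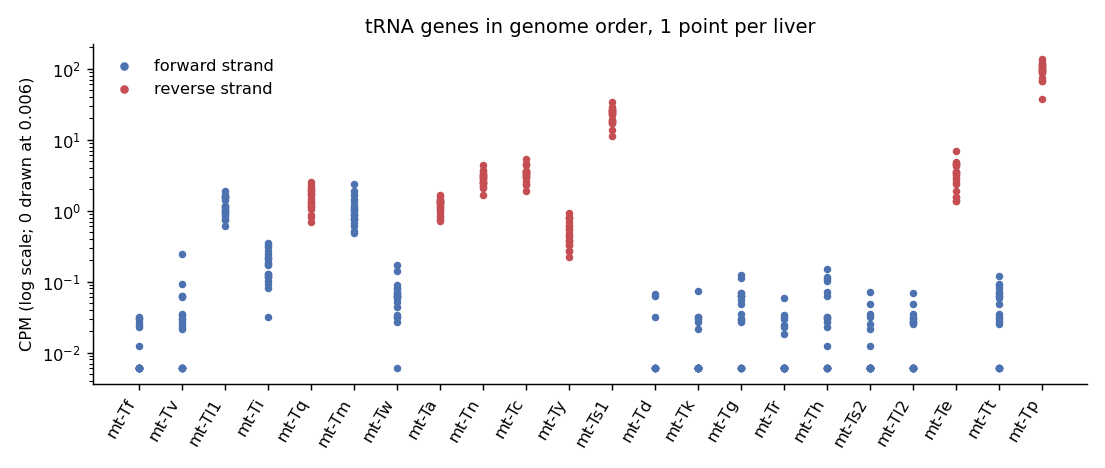
CPM (log scale) of the 22 tRNA genes in their order on the mitochondrial genome, 1 point per liver, with reverse-strand genes in red and forward-strand genes in blue. The reverse-strand genes, led by mt-Tp and mt-Ts1, lie above nearly all forward-strand genes; mt-Tl1 and mt-Tm are the exceptions.

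A filter on low counts left 25 of the 37 members in each comparison: all 13 protein genes, both rRNAs, the 8 reverse-strand tRNAs and the forward-strand tRNAs mt-Tl1 and mt-Tm. The remaining 12 were too low to test, and none of these exceeded 0.35 CPM in any liver. A member was called at a Benjamini-Hochberg adjusted p of 0.05 over all genes tested. Members come from shared long transcripts and the same livers, so those that lie in the same direction are not independent observations. Shares over all genes beside such counts are given for scale only.

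Knockdown of Pklr called none of the 25 members by edgeR, and DESeq2 and limma-voom also called 0. The background was 0.00641% of the 15611 genes tested by edgeR, which is 1 gene, and 1.67% by DESeq2. Levels nevertheless sat lower for most protein genes, with 12 of 13 below the control, as were 47.2% of all genes tested, and mt-Nd1 alone above it, at a log2 fold change of 0.03. The median log2 fold change over the 25 was -0.14, against 0.02 over all genes, and was -0.19 without shPKLR replicate 4 and -0.09 without shPKLR replicate 5. At an unadjusted p of 0.05, which 15% of all genes passed, 1 member was higher and 4 were lower. Because few genes of any kind passed in this experiment, the sizes and errors below are descriptions.

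Of the complex I genes, mt-Nd4l, a small membrane subunit, had the smallest p in the knockdown. Its level was 1263, 1340, 920, 1052 and 1059 CPM in shLUC replicates 1 to 5 and 807, 812, 923, 432 and 708 CPM in the shPKLR livers. Nearly all shPKLR livers lay below the controls; replicate 3, at 923 CPM, just overlapped the lowest control. The log2 fold change was -0.62 (SE 0.19, edgeR adjusted p = 0.241), and -0.48 without shPKLR replicate 4. mt-Nd5, the large proton-pumping subunit, was at 5354, 5730, 3210, 4298 and 4309 CPM with shLUC and at 3294, 3902, 3939, 2147 and 3048 CPM with shPKLR. These groups overlapped through the low shLUC replicate 3, and the log2 fold change was -0.50 (SE 0.20, edgeR adjusted p = 0.300), and -0.38 without shPKLR replicate 4. The other complex I genes lay between -0.21 for mt-Nd4 and 0.03 for mt-Nd1, and mt-Nd6 on the reverse strand was at -0.19 (SE 0.16). mt-Nd3 was at -0.11 (SE 0.16), at -0.21 without shPKLR replicate 4 and at -0.04 without shPKLR replicate 2.

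Among the oxidase genes, mt-Co1, the catalytic subunit, was the only member whose knockdown groups did not overlap. It was at 36020, 33150, 29130, 30270 and 27990 CPM in the shLUC livers and at 25920, 26630, 26620, 21270 and 20550 CPM in the shPKLR livers. Every shPKLR liver was thus below every shLUC liver, as was the case for 1.81% of all genes tested (1.41% were separated in the other direction). The mean was 77.3% of the control and the log2 fold change -0.38 (SE 0.14, edgeR adjusted p = 0.287). Its partners did not share this size: mt-Co3 was at -0.22 (SE 0.14) and mt-Co2 at -0.01 (SE 0.17), with a sign that turned under other settings. mt-Cytb was at -0.18 (SE 0.16), mt-Atp6 at -0.12 (SE 0.16) and the scattered mt-Atp8 at -0.82 (SE 0.42, edgeR adjusted p = 0.363). Without shPKLR replicate 4 mt-Atp8 was at -0.60 and mt-Atp6 at -0.19, and without shPKLR replicate 5 mt-Cytb was at -0.08 and mt-Atp6 at -0.05.

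The rRNAs lay on the other side, though whether the kit removed mitochondrial rRNA is not given in the sources used here. mt-Rnr1 was at 759, 818, 787, 897 and 611 CPM with shLUC and at 1332, 957, 651, 1916 and 1268 CPM with shPKLR. All shPKLR livers but replicate 3 were above every control. The log2 fold change was 0.65 (SE 0.24, edgeR adjusted p = 0.281), and 0.43 without shPKLR replicate 4, which moves the value by more than 1.5 times. mt-Rnr2 was at 0.17 (SE 0.19). Of the tRNAs, mt-Tp averaged 116.7 ± 15.2 CPM (SD, n = 5) in shLUC and 91.4 ± 17.8 in shPKLR livers, with overlapping groups and a log2 fold change of -0.36 (SE 0.15, edgeR adjusted p = 0.305). The other 9 tested tRNAs lay on both sides of 0, from -0.31 for mt-Ty to 0.51 for mt-Tm.

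Overexpression of Pklr gave the opposite picture in level: all 13 protein genes were higher in PKLR than in GFP livers, as were 51.1% of all genes tested, and both rRNAs were lower. For mt-Rnr2 the log2 fold change, -0.04 (SE 0.12), was smaller than its SE. Yet edgeR called none of the 25 members, against a background of 2.03% of the 15842 genes tested, and 6 members passed an unadjusted p of 0.05, which 18.8% of all genes did. DESeq2, whose background was 6.99%, called mt-Nd4l (adjusted p = 0.0207), mt-Nd5 (adjusted p = 0.0313) and mt-Co1 (adjusted p = 0.0327) as higher. The median log2 fold change over the 25 was 0.22, against 0.01 over all genes. Over the 13 protein genes the values lay in a narrow band, from 0.19 for mt-Co2 to 0.46 for mt-Nd4l.

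In complex I, mt-Nd4l was at 603, 654, 857, 767 and 927 CPM in GFP replicates 1 to 5 and at 903, 928, 1040, 1161 and 1148 CPM in the PKLR livers. Only GFP replicate 5 reached into the PKLR range. Its log2 fold change was 0.46 (SE 0.13, edgeR adjusted p = 0.101). mt-Nd5 was at 2819, 2816, 3802, 3224 and 4033 CPM with GFP and at 4005, 3954, 4204, 5132 and 4736 CPM with PKLR, and again only GFP replicate 5 overlapped. Its log2 fold change was 0.41 (SE 0.14, edgeR adjusted p = 0.125). mt-Nd4 was at 0.35 (SE 0.13), mt-Nd6 at 0.27 (SE 0.12), mt-Nd2 at 0.24 (SE 0.15), mt-Nd1 at 0.22 (SE 0.12) and mt-Nd3 at 0.21 (SE 0.14). The gene on the reverse strand was therefore inside the range of those on the forward strand in both experiments.

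mt-Co1 was at 21260, 21190, 24700, 22480 and 26320 CPM with GFP and at 25090, 28630, 27720, 28010 and 29770 CPM with PKLR. GFP replicate 5 lay above PKLR replicate 1, and the other livers were apart. The mean was 120% of the control, with a log2 fold change of 0.28 (SE 0.11, edgeR adjusted p = 0.208). mt-Co3 was at 0.27 (SE 0.12), mt-Cytb at 0.25 (SE 0.13), mt-Atp6 at 0.24 (SE 0.13) and mt-Atp8 at 0.43 (SE 0.23). mt-Rnr1, at 851.7 ± 105.3 CPM (SD, n = 5) with GFP and 703 ± 113 with PKLR, gave -0.26 (SE 0.13), or -0.17 without PKLR replicate 1, and mt-Rnr2 gave -0.04 (SE 0.12).

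mt-Tp was the only member whose overexpression groups did not overlap, which 2.7% of all genes did in the higher and 2.17% in the lower direction. It was at 37.9, 66.7, 91.4, 73.1 and 89.0 CPM in the GFP livers and at 98.0, 107.4, 96.7, 107.7 and 117.6 CPM in the PKLR livers. GFP replicate 1 was far below the rest. The log2 fold change was 0.57 (SE 0.19, edgeR adjusted p = 0.141), and 0.42 without that liver. mt-Ts1 was at 0.29 (SE 0.16), and the other tested tRNAs lay between -0.32 for mt-Ty and 0.16 for mt-Te.

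**Figure D3:**
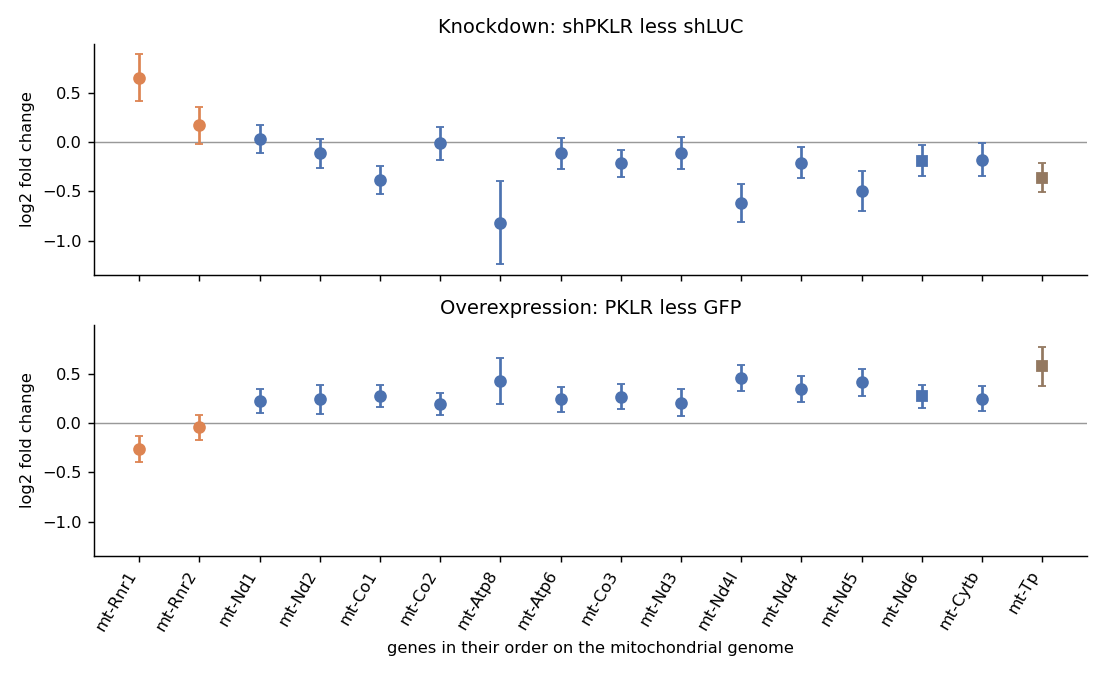
Log2 fold change with its SE for the 2 rRNA genes (orange), 13 protein genes (blue) and mt-Tp (brown) in gene order, for the knockdown above and the overexpression below; squares are reverse-strand genes. Protein genes lie mostly below 0 in the knockdown and all above 0 in the overexpression. The rRNAs lie on the opposite side in each, mt-Rnr2 by less than its SE, and no value was called by edgeR.

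Whether the effects differed was tested in the joint fit of all 20 livers, as the overexpression effect less the knockdown effect. This contrast does not test the sign of either effect, and edgeR called neither effect of any member on its own. For the difference edgeR called 4 of the 25 members, all higher, against 5.5% of the 16407 genes tested, of which 2.75% were higher. DESeq2 called 7 members, 6 higher and mt-Rnr1 lower, against a background of 9.84%. The difference was 1.06 (SE 0.24, edgeR adjusted p = 0.0155) for mt-Nd4l, 0.64 (SE 0.16, edgeR adjusted p = 0.0268) for mt-Co1, 0.89 (SE 0.24, edgeR adjusted p = 0.0368) for mt-Nd5 and 0.91 (SE 0.25, edgeR adjusted p = 0.0380) for mt-Tp. In this contrast all 13 protein genes had a positive difference, as did 44.6% of all genes, and mt-Rnr1 had a negative one of -0.94 (SE 0.29, edgeR adjusted p = 0.0568) that missed the threshold. mt-Atp8 had the largest estimate, 1.23, with an SE of 0.52 and an edgeR adjusted p of 0.148.

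How firmly these calls held differed between the genes. The call of mt-Nd4l held with any 1 of the 20 livers left out, between 0.92 and 1.15 on the log2 scale, and that of mt-Co1 in 19 of 20 such fits; without shLUC replicate 2 its adjusted p was 0.0546. The call of mt-Nd5 was lost in 10 of 20 fits (between 0.77 and 0.99 over all 20 fits, adjusted p up to 0.0788), namely without shLUC replicate 1, 2 or 5, shPKLR replicate 1, GFP replicate 1, 2 or 4, or PKLR replicate 3, 4 or 5. That of mt-Tp was also lost in 10 (between 0.76 and 1.02 over all 20 fits, adjusted p up to 0.0729), without shLUC replicate 1, 2 or 4, shPKLR replicate 1, GFP replicate 2 or 4, or PKLR replicate 2, 3, 4 or 5. Since the experiments have separate controls, a difference between those controls that the treated groups do not share also enters the contrast.

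**Figure D4:**
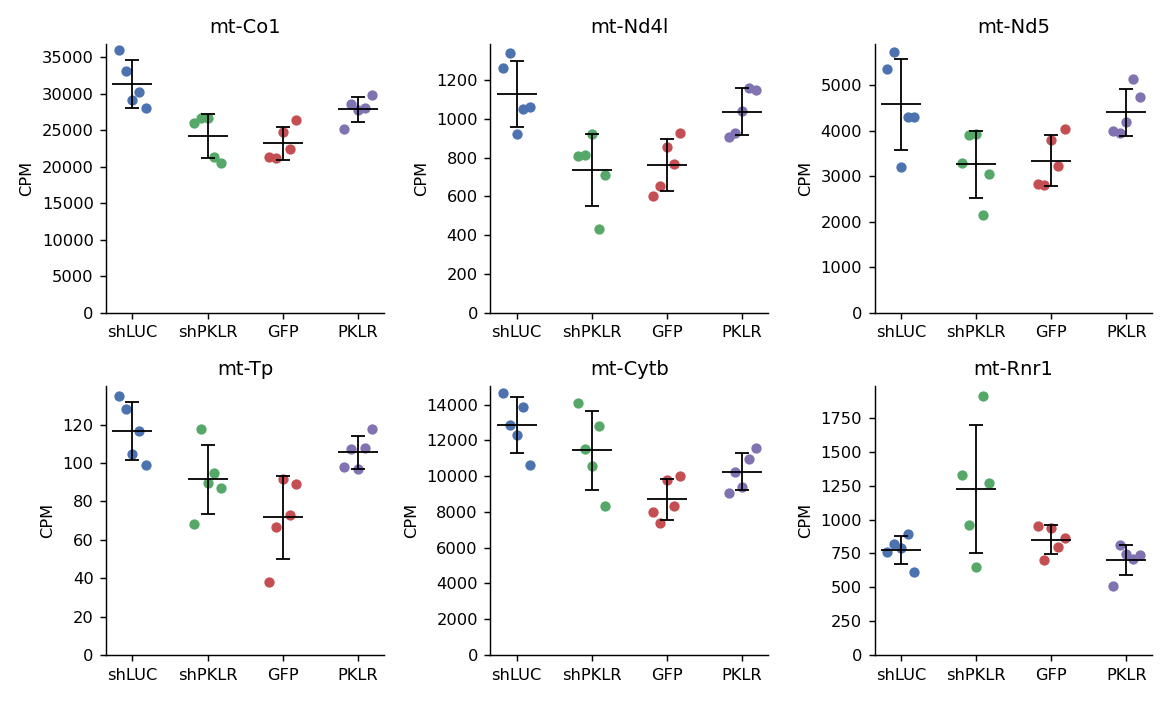
CPM of mt-Co1, mt-Nd4l, mt-Nd5, mt-Tp, mt-Cytb and mt-Rnr1 in each liver (points), with the mean (long bar) and SD (whiskers) of each group of 5. For the first 5 genes shLUC has the highest mean and GFP or shPKLR the lowest, while mt-Rnr1 is highest in shPKLR livers.

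The control livers themselves differed. In the joint fit, GFP less shLUC called 5 of the 25 members, all lower with GFP, against 5.81% of the 16407 genes tested, of which 2.33% were lower. DESeq2 called 9 members, against a background of 8.58%. mt-Cytb fell by 0.56 (SE 0.14, edgeR adjusted p = 0.0200), mt-Nd4 by 0.54 (SE 0.14, edgeR adjusted p = 0.0249), mt-Co3 by 0.45 (SE 0.12, edgeR adjusted p = 0.0310), mt-Co1 by 0.43 (SE 0.11, edgeR adjusted p = 0.0275) and mt-Tp by 0.70 (SE 0.18, edgeR adjusted p = 0.0226), all on the log2 scale. All 13 protein genes were lower with GFP, as were 45.3% of all genes, and the median over the 25 was -0.33 against 0.03 over all genes. The groups did not overlap for mt-Co1, mt-Nd4, mt-Cytb and mt-Tp, which was so for 4.02% of all genes in the lower and 3.97% in the higher direction. mt-Cytb, for example, was at 14660, 12870, 12310, 13850 and 10600 CPM in the shLUC livers and at 8005, 7388, 9772, 8352 and 9998 CPM in the GFP livers. The rRNAs were at 0.14 (SE 0.20) for mt-Rnr1 and -0.06 (SE 0.16) for mt-Rnr2. Leaving out 1 liver gave between 0 and 8 calls: 0 without shLUC replicate 1 or GFP replicate 2, 1 without shLUC replicate 2 or GFP replicate 1, 2 without GFP replicate 4, 3 without shLUC replicate 4, and 8 without shPKLR replicate 4 or GFP replicate 5. Pklr itself averaged 478.9 CPM in shLUC and 118 CPM in GFP livers, and its part in this contrast was not tested. Vector and experiment cannot be told apart here. The contrast shares the GFP and shLUC livers with the tests above, so the signs of the 3 results are tied to one another.

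On the joint scale the 4 group means of mt-Co1 were 31310 ± 3258 CPM (SD, n = 5) in shLUC livers, 27840 ± 1729 with PKLR, 24200 ± 3024 with shPKLR and 23190 ± 2254 with GFP. For Pklr the order was 742 ± 210 CPM with PKLR, 478.9 ± 115.7 with shLUC, 118 ± 34.5 with GFP and 54.9 ± 23.3 with shPKLR. PKLR and shLUC livers were thus the higher groups for both genes, though in exchanged order. Their mt-Co1 ranges overlapped, at 27990 to 36020 CPM with shLUC and 25090 to 29770 with PKLR. A link of mt-Co1 to the level of Pklr was not tested. mt-Nd4l had its highest groups in the same order as mt-Co1, at 1127 ± 171 CPM with shLUC and 1036 ± 120 with PKLR. Its shPKLR livers, at 736.6 ± 187 CPM, and GFP livers, at 761.5 ± 135, were close together. For mt-Cytb the shPKLR livers, at 11460 ± 2209 CPM, averaged above the PKLR livers, at 10230 ± 1035, so the order of groups was not shared by all members.

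Ratios of neighbouring genes within a liver do not depend on how libraries are scaled, and 3 of them were compared in both experiments by exact two-sided permutation tests, with p adjusted over the 6 tests; the smallest raw p possible is 0.00794. The counts of mt-Rnr1 were 81.95%, 69.75%, 88.25%, 83.98% and 80.63% of those of mt-Rnr2 in the shLUC livers and 105.7%, 100.9%, 91.99%, 165.5% and 91.48% in the shPKLR livers. Every shPKLR liver was above every shLUC liver. Whether the kit removed mitochondrial rRNA is not given, and a part of such removal in this ratio was not tested. The mean log2 ratio was higher by 0.42 (exact permutation p = 0.00794, adjusted p = 0.0476), and by 0.27 without shPKLR replicate 4, whose ratio stood far above the others. With any 1 liver left out the difference was 0.27 to 0.48 and the exact permutation adjusted p was above 0.05, in a design of 4 against 5 livers that cannot reach the raw p above. With PKLR the ratio was lower than with GFP by a log2 difference of -0.23 (exact permutation p = 0.0317, adjusted p = 0.0952), with 71.12% to 90.35% in PKLR livers and 86.11% to 98.87% in GFP livers. With 1 liver left out this difference ran from -0.28 to -0.19, and only without PKLR replicate 2 did the exact permutation adjusted p, 0.0476, pass the threshold. That adjusted p also rests on the knockdown tests of all livers, which stayed among the 6.

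The overlapping pairs that were compared gave no difference past the threshold. Their ratios depend on how reads on the shared bases were counted, which is not given in the sources used here. mt-Nd4l counts were 10.49% to 12.64% of those of mt-Nd4 in shLUC livers and 4.87% to 11.87% in shPKLR livers, a log2 difference of -0.43 (exact permutation adjusted p = 0.127), and of -0.23 without shPKLR replicate 4. In the overexpression the difference was 0.11 (exact permutation adjusted p = 0.155). mt-Atp8 counts were 3.70% to 12.05% of those of mt-Atp6 with shLUC and 1.38% to 8.21% with shPKLR, a log2 difference of -0.81 (exact permutation adjusted p = 0.238), and of -0.42 without shPKLR replicate 4. With PKLR and GFP the ratios ran from 6.57% to 12.27% and from 5.59% to 10.63%, a difference of 0.23 (exact permutation adjusted p = 0.333).

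**Figure D5:**
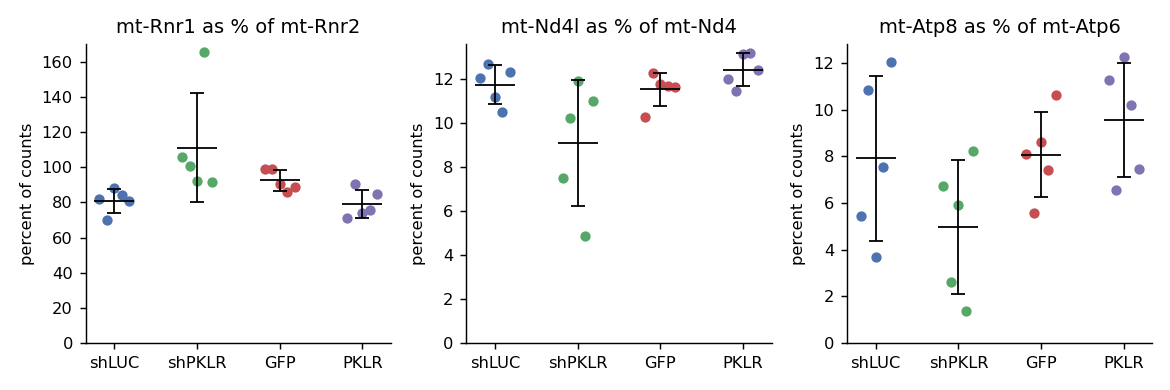
Counts of mt-Rnr1 as a percentage of mt-Rnr2, of mt-Nd4l as a percentage of mt-Nd4 and of mt-Atp8 as a percentage of mt-Atp6, in each liver, with the mean (long bar) and SD (whiskers) of each group of 5. All shPKLR livers lie above all shLUC livers for the rRNA ratio, where shPKLR replicate 4 reaches 165.5%, and the same liver is lowest for the other ratios.

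Nuclear genes that copy, process and translate the mitochondrial genome were taken as a list of 101 genes, all of which were tested. In the knockdown none was called, 44 were higher (43.6%, against 52.8% of all genes) and 57 lower, and the median log2 fold change was -0.02. The smallest p values there belonged to Hsd17b10, a subunit of the mitochondrial RNase P that cuts tRNAs from their precursors, at -0.48 (SE 0.15, edgeR adjusted p = 0.255), and Mrm1, which methylates mitochondrial rRNA, at 0.60 (SE 0.22, edgeR adjusted p = 0.287). In the overexpression 72 were higher (71.3%, against 51.1% of all genes) and 29 lower, with a median of 0.07. DESeq2 called 5 of 101, all as higher, against 6.99% of all genes. By edgeR only 2 of 101 were called, both as higher, a share close to the 2.03% called among all genes. These were Qrsl1, a subunit of the amidotransferase that makes glutaminyl-tRNA in mitochondria, at 0.62 (SE 0.13, edgeR adjusted p = 0.0317), and Top3a, a topoisomerase that separates mitochondrial DNA circles, at 0.47 (SE 0.10, edgeR adjusted p = 0.0386). Qrsl1 was also called in the overexpression effect less the knockdown effect, at 0.70 (SE 0.19, edgeR adjusted p = 0.0346), and Mterf3 and Hsd17b10 fell by 0.33 and 0.67 in GFP less shLUC (edgeR adjusted p = 0.0442 and 0.0476). These calls, 1 of 101 and 2 of 101, were fewer than the 5.5% and 5.81% called among all genes.

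The best known regulators stayed below the threshold in every comparison by edgeR. Tfam, which packages mitochondrial DNA and starts its transcription, was at -0.06 (SE 0.13) in the knockdown and -0.05 (SE 0.09) in the overexpression. Polrmt, the polymerase, was at 0.10 (SE 0.13) and 0.12 (SE 0.09), and Ppargc1a, a coactivator of genes for mitochondria, at -0.18 (SE 0.15) and 0.02 (SE 0.20). Lrpprc, which stabilises mitochondrial messenger RNAs, was at -0.02 (SE 0.12) in the knockdown and 0.27 (SE 0.07, edgeR adjusted p = 0.0832) in the overexpression, where DESeq2 called it (adjusted p = 0.0130).

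Few nuclear genes for subunits of the same complexes were called. In the knockdown 0 of 36 complex I, 9 complex III, 12 complex IV and 15 complex V genes were called by edgeR, with 25, 5, 9 and 7 higher (52.8% of all genes were) and medians of 0.09, 0.03, 0.10 and -0.01. In the overexpression 0 were called again, with 25, 8, 8 and 11 higher (51.1% of all genes were) and medians of 0.06, 0.06, 0.07 and 0.06. Unadjusted p values under 0.05 numbered 2 of 72 in the knockdown and 3 of 72 in the overexpression, against 15% and 18.8% of all genes. DESeq2, with a background of 1.67%, called 1 of the 72 in the knockdown, Atp5f1, a stalk subunit of ATP synthase, at -0.65 (SE 0.15, edgeR adjusted p = 0.171, DESeq2 adjusted p = 0.00956), and 0 in the overexpression. Atp5f1 also differed between the experiments (0.71, SE 0.17, edgeR adjusted p = 0.0181). Taken within each complex, the 2 smallest p values of complex V in the knockdown belonged to Atp5f1 and Atp5a1, the latter at -0.31 (SE 0.16). Those of complex IV belonged to Cox7a1 at 0.97 (SE 0.39) and Cox5a at -0.28 (SE 0.14). For complex I they were those of Ndufb2 at 0.52 (SE 0.27) and Ndufc2 at -0.20 (SE 0.11). For complex III they were those of Uqcrc2 at -0.26 (SE 0.16) and Cyc1 at -0.16 (SE 0.12).

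In the overexpression the smallest p values of the subunit lists belonged to Ndufa8 at 0.20 (SE 0.08) and Ndufb3 at 0.18 (SE 0.09) of complex I, Uqcrh at -0.19 (SE 0.08) and Uqcrc2 at 0.18 (SE 0.08) of complex III, Cox7a2 at -0.23 (SE 0.09) and Cox5a at 0.35 (SE 0.18) of complex IV, and Atp5a1 at 0.21 (SE 0.10) and Atp5c1 at 0.11 (SE 0.08) of ATP synthase. The edgeR adjusted p was 0.183 or more for each of these 8. In GFP less shLUC, 69 of the 72 nuclear subunit genes were lower with GFP, against 45.3% of all genes, with list medians from -0.20 to -0.25. Of the 72, edgeR called 1, against 5.81% of all genes: Ndufb8 of complex I fell by 0.36 (SE 0.09, edgeR adjusted p = 0.0205).

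Markers of other liver cells also varied between groups. The 7 extracellular matrix and stellate cell markers summed to 145 to 203.5 CPM with shLUC, 120.4 to 222 with shPKLR, 191 to 429 with GFP and 119 to 223 with PKLR. In GFP less shLUC all 7 were higher (54.7% of all genes were) and 4 were called (5.81% of all genes). In the overexpression all 7 were lower (51.1% of all genes were higher) and 1 was called (2.03% of all genes). By DESeq2 5 of the 7 were called there (6.99% of all genes). The 9 macrophage markers summed to 117 to 214 CPM with shLUC, 107 to 291 with shPKLR, 89.0 to 369.5 with GFP and 79.4 to 247 with PKLR. In GFP less shLUC 7 of the 9 were higher and 2 were called, in the overexpression 6 were lower and 1 was called, and in the knockdown all 9 were higher (52.8% of all genes were) and 0 were called. The 6 lymphocyte markers tested in the overexpression were all lower, with a median of -0.44, and 1 was called (2.03% of all genes were). The 7 tested in GFP less shLUC were all higher, with a median of 0.25, and 0 were called (5.81% of all genes were). In the knockdown all 7 were higher too (52.8% of all genes were), with a median of 0.39 and 0 called. No marker of these 3 lists was at 0 in every liver, but 3 of the 7 lymphocyte markers were under 1 CPM in every liver. Of the 5 endothelial markers, 4 were lower in GFP less shLUC (45.3% of all genes were) and 0 were called. In the knockdown 4 were lower (47.2% of all genes were) and in the overexpression 2, with 0 called in each. Of the 4 cholangiocyte markers, 3 were higher in GFP less shLUC and 1 was called (5.81% of all genes). In the overexpression all 4 of these were lower and 0 were called. The 5 erythroid markers were all lower in the overexpression too, with 0 called, and summed to 352.6 to 2624 CPM with shLUC. The part of these cells in the mitochondrial results was not tested.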

How the data were processed

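Members and gene lists were chosen with earlier results of these data known. The authors deposited 2 tables of raw read counts per gene, 1 per experiment. The submitters' processing notes name HISAT2 and DESeq2 and the builds GRCm38 and mm10. Which program counted the reads, on which annotation and with which strand option, is not given in the sources used here. Frozen liver and a stranded total RNA kit were used, per the labels' protocols. Gene symbols, coordinates and transcripts were those of GENCODE for GRCm38 (26859 and 26094 identifiers matched).

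Each experiment was fitted with edgeR 4.0.16 (robust quasi-likelihood, filterByExpr, TMM, Benjamini-Hochberg) in R 4.3.3. A joint fit of 20 livers used the 25238 genes in both tables. The SE is the size of the log2 fold change divided by the square root of F. Ratios used exact permutation tests (SciPy 1.17.1). Per the series description each group had 5 livers, and the closest pair within a group differed by a chi-square of 29.18 per degree of freedom. All protein and rRNA genes were named, with the 6 highest tRNAs and, of each nuclear list, called genes or the 2 with the smallest p. Alternatives included DESeq2 1.42.0 and limma-voom (limma 3.58.1). Prorp and Atp5o could not be matched to 1 identifier. The steps were tested on simulated counts.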

Additional observations from a re-analysis of the deposited data

Results flagged for a closer look

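In 100 sets of 5 livers checked for a single value far from the rest, 2 had one, where chance gives about 1 in 20. The level of mt-Te in shPKLR replicate 1 was 6.883 CPM, against at most 2.904 CPM in the other shPKLR livers. The counts of mt-Rnr1 in shPKLR replicate 4 were 165.5% of those of mt-Rnr2, against at most 105.7% in its group. For 4 members the overexpression effect differed from the knockdown effect in the joint edgeR fit, by 0.6355 for mt-Co1, 1.058 for mt-Nd4l, 0.8882 for mt-Nd5 and 0.9107 for mt-Tp on the log2 scale. The largest of these adjusted p values was 0.0380.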

How the results depend on the processing

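The alternatives were RLE size factors, 2 other filters, DESeq2, limma-voom, a replicate block, mitochondrial genes and their copies left out of library totals, 1 fit of all livers, shPKLR replicate 4 thinned, and each liver left out; leaving all 7 chromosome 1 copies out of totals was chosen after seeing the data. Calls among the 25 members stayed at 0 in the knockdown under each of these. In the overexpression DESeq2 gave 3 calls and the replicate block 1 (mt-Nd4l, adjusted p = 0.0314), and the other settings 0. For the overexpression effect less the knockdown effect DESeq2 gave 7 calls and the block 3, with mt-Nd5 at an adjusted p of 0.0607, and leaving out 1 liver gave 1 to 5. For GFP less shLUC DESeq2 gave 9 calls and the block 2, no filter 4, and leaving out 1 liver 0 to 8. Equal replicate numbers did not pair the livers: same-numbered livers correlated between -0.233 and 0.393 in the knockdown and between -0.0962 and 0.272 in the overexpression, and 2 and 3 of 10 livers correlated best with their own number. Signs turned only for small values: mt-Co2 in the knockdown was at 0.0132 when 5 livers had to exceed 1 CPM, and mt-Tc in the overexpression at -0.0175 with limma-voom. With 1 liver left out, knockdown values ran from -0.102 to 0.0765 for mt-Co2, -0.0261 to 0.0908 for mt-Nd1, -0.00796 to 0.233 for mt-Tn and -0.245 to 0.125 for mt-Ts1. Overexpression values ran from -0.128 to 0.0216 for mt-Rnr2, -0.113 to 0.14 for mt-Tc, -0.0214 to 0.361 for mt-Te, -0.0446 to 0.178 for mt-Tn and -0.0305 to 0.287 for mt-Tq. The log2 ratio of mt-Rnr1 to mt-Rnr2 ran from 0.27 to 0.48 in the knockdown, with adjusted p above 0.05 each time. In these fits 4 livers against 5 cannot reach the raw p of the full design. In the overexpression the ratio ran from -0.28 to -0.19. Most forward-strand tRNAs had too few reads to test.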
